A study of Homo sapiens with 12 samples.

Results

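The genes described here are the 7 cyclin-dependent kinase (CDK) inhibitor genes CDKN1A, CDKN1B, CDKN1C, CDKN2A, CDKN2B, CDKN2C and CDKN2D, found by symbol among the 22170 genes of the table. They were taken as the genes that encode the CIP/KIP and INK4 proteins, with earlier results of these data known, and all 7 passed the filter on low values that left 14179 genes for testing. Their transcripts were measured in SKBR3 cells, a breast cancer line with an amplified ERBB2 (HER2) gene, labelled as wild type, and every group was made from this same line. Of the 4 groups, the first received 5 µM GSK126 for 7 days with 100 nM lapatinib over the last 24 h, and the second received 5 µM GSK126 alone for 7 days. The third received DMSO and then 100 nM lapatinib over the last 24 h, and the fourth received DMSO throughout. Lapatinib blocks the HER2 and EGFR kinases. GSK126 blocks the enzyme activity of EZH2, the methyltransferase of the repressive complex PRC2, so the EZH2 transcript is no check of its action. Each group had 3 libraries. The labels do not say whether these came from separate cultures, so p-values here stand for differences between libraries, whose spread may be technical.

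CDK inhibitors bind cyclin-dependent kinases and slow the cell cycle. The CIP/KIP members p21 (CDKN1A), p27 (CDKN1B) and p57 (CDKN1C) act on complexes of several cyclins, whereas the INK4 members p16 (CDKN2A), p15 (CDKN2B), p18 (CDKN2C) and p19 (CDKN2D) bind CDK4 and CDK6 and keep D-type cyclins from activating them. CDKN2A also encodes p14ARF, which stabilises p53, from a separate first exon. The locus that holds CDKN2A and CDKN2B is a well known target of Polycomb repression, CDKN1C lies in an imprinted domain, and p27 is known to be controlled largely through turnover of its protein, which these data do not measure.

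With GSK126, CDKN1C, CDKN2B and CDKN1A transcripts were higher than without it, whether or not lapatinib was present. With lapatinib, CDKN2D was lower, with or without GSK126, and CDKN1A and CDKN2A were called lower in the absence of GSK126, although the last 2 calls were lost when certain libraries were left out. With GSK126 present, CDKN1A and CDKN2A were also lower with lapatinib but did not pass the test. Neither gene was called for a departure from the sum of the separate drug changes. CDKN1B did not pass the test in any of these comparisons. Levels below are normalized read counts, made by the authors with a DESeq2 size factor per library. Changes are log2 fold changes ± SE from limma on log2(value + 1), fitted over all 12 libraries and all tested genes and called at an adjusted p under 0.05. Levels of a gene are compared between groups on this scale, and levels of different genes are compared only per kb of exon. Because these are bulk samples, fewer cells of a kind and less RNA per cell cannot be told apart.

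The libraries held 17.7 to 30.3 M reads assigned to genes. The first GSK126 library and the first combination library stood apart from the rest of their groups. The first combination library was the shallowest and had reads in 21669 genes, against 15059 to 17338 genes in the other libraries. The relative amounts of the spike-in transcripts fell into 3 compositions: one in all DMSO and lapatinib libraries and in combination libraries 2 and 3, another in GSK126 library 1, and another in GSK126 libraries 2 and 3 and combination library 1. GSK126 and DMSO libraries never shared a composition, so no value within a composition exists for that pair. Of 9 listed SKBR3 markers 8 passed the filter, and CDH1 was at 0 to 12.4. GSK126 against DMSO called 0 of these 8 higher and 3 lower (TFAP2A, TFAP2B and EPCAM), where 10.7% of all tested genes were called higher and 3.93% lower. The combination against lapatinib also called 0 higher and 3 lower (TFAP2A, ERBB2 and KRT19), where 11.5% were called higher and 6.35% lower. Among markers of other cells, the defining blood genes PTPRC, CD3E, LYZ and HBB reached at most 19.9 and the endothelial genes PECAM1 and KDR at most 22.4 in any library. Both of these highest values, of PTPRC and of KDR, came from the first combination library. The other listed markers of these cells were present, with CD68 of the blood list at up to 715, and CDH5 and VWF of the endothelial list at up to 1529 and 157. CDH5 and CD68 were called higher with GSK126, and their values by group stand at the end. CD68 was also called higher with lapatinib.

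The start regions of 3 of the genes that changed most clearly are printed here, with the INK4A start of CDKN2A for comparison as the neighbour of CDKN2B. Each is the 250 bases upstream of a RefSeq transcription start on GRCh38.p14, read 5′ to 3′ on the strand of the gene, and capitals mark GC boxes (GGGCGG or its complement CCGCCC), the letters bound by SP and KLF factors. The regions lie at chr6:36678464-36678713 on the plus strand for CDKN1A, at chr9:22009306-22009555 on the minus strand for CDKN2B, at chr9:21974858-21975107 on the minus strand for CDKN2A and at chr19:10568980-10569229 on the minus strand for CDKN2D.
CDKN1A: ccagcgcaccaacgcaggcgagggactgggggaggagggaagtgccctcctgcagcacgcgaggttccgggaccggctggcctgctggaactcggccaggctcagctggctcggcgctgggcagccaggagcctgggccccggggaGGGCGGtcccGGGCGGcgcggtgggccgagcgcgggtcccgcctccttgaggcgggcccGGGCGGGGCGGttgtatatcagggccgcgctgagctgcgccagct
CDKN2B: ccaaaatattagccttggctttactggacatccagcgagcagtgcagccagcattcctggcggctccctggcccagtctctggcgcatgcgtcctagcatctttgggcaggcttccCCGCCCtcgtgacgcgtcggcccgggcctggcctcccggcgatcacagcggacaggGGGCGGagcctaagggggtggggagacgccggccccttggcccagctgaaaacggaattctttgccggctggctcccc
CDKN2A: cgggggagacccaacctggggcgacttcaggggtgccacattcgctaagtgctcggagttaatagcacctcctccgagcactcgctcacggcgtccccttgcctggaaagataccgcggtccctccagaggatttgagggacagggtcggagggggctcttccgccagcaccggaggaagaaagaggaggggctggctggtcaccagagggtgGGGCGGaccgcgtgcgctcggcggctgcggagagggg
CDKN2D: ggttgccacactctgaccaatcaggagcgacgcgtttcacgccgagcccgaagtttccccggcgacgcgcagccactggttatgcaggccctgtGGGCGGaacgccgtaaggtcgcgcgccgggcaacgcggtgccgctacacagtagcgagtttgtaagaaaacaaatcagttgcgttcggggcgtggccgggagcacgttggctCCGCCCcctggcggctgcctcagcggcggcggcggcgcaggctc

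The CDKN1A region held 4 GC boxes, a pair of which overlap, the CDKN2B and CDKN2D regions held 2 each, and this CDKN2A region held 1. RefSeq start regions were found for 6 of the 7 genes, 9 regions in all because CDKN2A and CDKN2C have more than 1 start. A GC box on either strand was present in 7 of these 9 regions and in 42.6% of 35116 regions of the same length. The number of CG dinucleotides was 27 for CDKN1A, 18 for CDKN2B, 20 for this start of CDKN2A and 33 for CDKN2D, beside a median of 11 over all regions. The words TGTTTAC (bound by FOXO factors), CACGTG (the E-box bound by MYC and MAX) and TATAAA were absent from the 4 printed regions on both strands, and 2.98%, 6.34% and 10.7% of all regions held them. Such matches describe letters only.

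**Figure D1:**
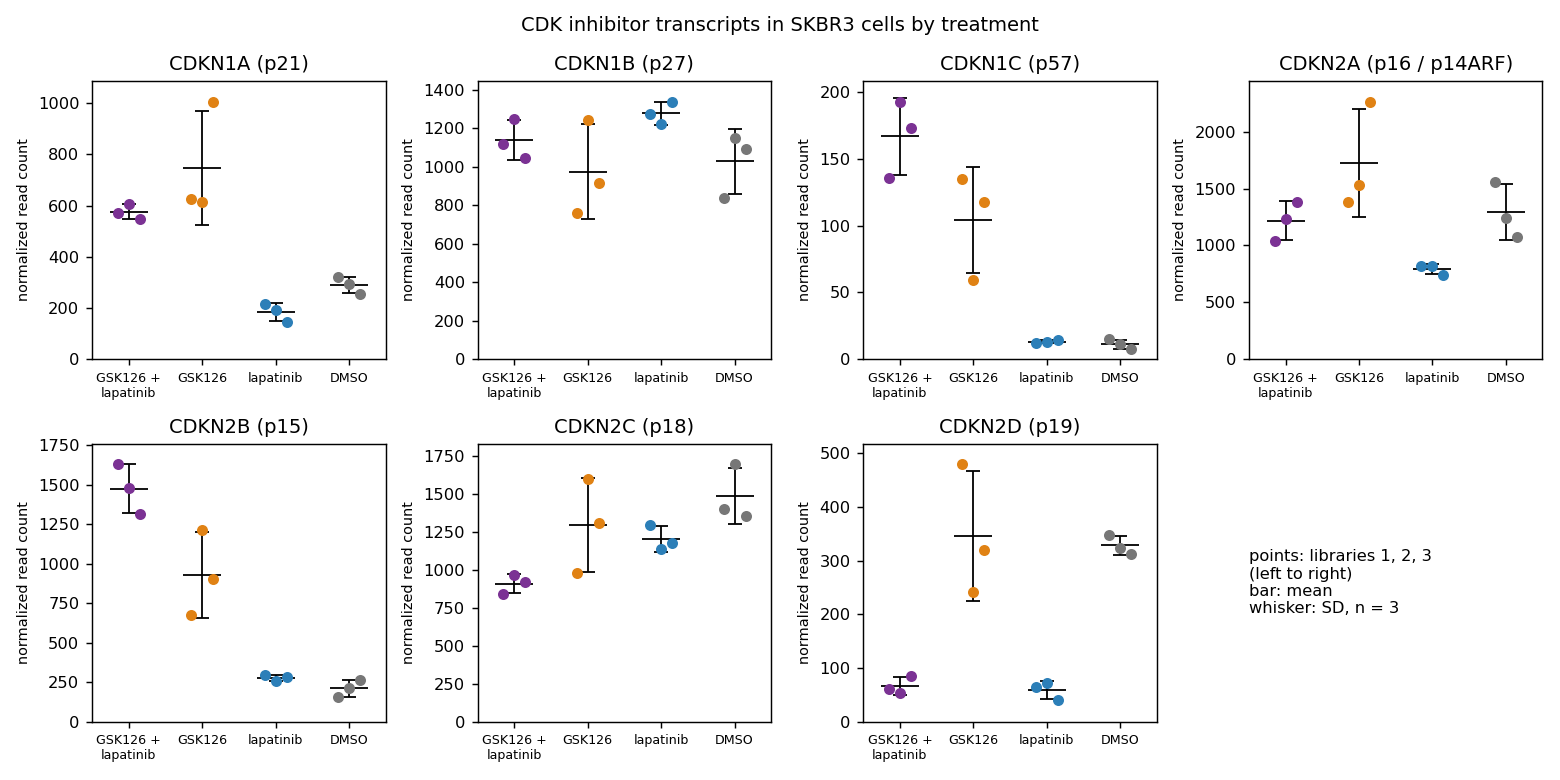
Normalized read count (y axis) of each of the 7 genes in every library, grouped on the x axis by treatment, with the mean as a bar and the SD as whiskers (n = 3). CDKN1C sits between 59.1 and 193 in the 6 libraries with GSK126 and between 7.47 and 14.7 in the others, and CDKN2D sits between 41.3 and 84.8 in the 6 libraries with lapatinib and between 241 and 479 in the others.

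Among the CIP/KIP genes, CDKN1A encodes p21, which inhibits cyclin E and cyclin A complexes with CDK2 and is a classical target of p53. CDKN1A had 571, 606 and 549 normalized counts in the combination libraries, 624, 615 and 1006 in the GSK126 libraries, 216, 192 and 145 in the lapatinib libraries and 319, 295 and 255 in the DMSO libraries. All 6 libraries with GSK126 lay above all 6 without it, and all lapatinib libraries lay below all DMSO libraries. The third GSK126 library was the highest and gave that group its wide spread, 748 ± 223 (SD, n = 3), against 290 ± 32.2 in DMSO. CDKN1A was higher in GSK126 than in DMSO cells by 1.33 ± 0.21 (adjusted p = 0.000853, limma), a ratio of means of 2.58. It was higher with both drugs than with lapatinib by 1.65 ± 0.21 (adjusted p = 0.000116), a ratio of 3.12. With the spike-in composition as a term, which links the pair only through combination library 1, the difference between GSK126 and DMSO was 1.46 with an adjusted p of 0.0696. Leaving out the first GSK126 and first combination library gave 1.44 with an adjusted p of 0.00119. The difference between combination and lapatinib libraries of the same composition (2 against 3) was 1.66.

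Lapatinib alone went with less CDKN1A, by -0.66 ± 0.21 against DMSO (adjusted p = 0.0345, limma). That call was lost when DMSO library 1 or 2, lapatinib library 2 or 3, or combination library 2 was left out, with an adjusted p of up to 0.151. Between combination and GSK126 libraries CDKN1A differed by -0.34 ± 0.21 (95% interval -0.80 to 0.12, adjusted p = 0.287), although the groups did not overlap. Set against DMSO, the combination had more CDKN1A by 0.99 ± 0.21 (adjusted p = 0.0024), but by -0.01 under scaling to the spike-in total. That scaling moved the median of all genes in this comparison to -0.94, and CDKN1A lay 0.93 above it.

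CDKN1B encodes p27, the CIP/KIP inhibitor best known as a brake on CDK2 in HER2-driven cells. CDKN1B had 1121, 1251 and 1047 normalized counts in the combination libraries, 759, 1244 and 918 in the GSK126 libraries, 1275, 1221 and 1339 in the lapatinib libraries and 837, 1151 and 1095 in the DMSO libraries. The lapatinib libraries were the tightest and lay above all DMSO libraries, while the GSK126 libraries were the most scattered. None of the differences passed the test. It was 0.33 ± 0.18 for lapatinib against DMSO (95% interval -0.07 to 0.73, adjusted p = 0.206, limma) and -0.09 ± 0.18 for GSK126 against DMSO (-0.49 to 0.30, adjusted p = 0.801). Between the combination and either drug alone it was -0.17 against lapatinib (-0.57 to 0.23, adjusted p = 0.625) and 0.25 against GSK126 (-0.15 to 0.65, adjusted p = 0.363).

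CDKN1C encodes p57, an inhibitor of several G1 kinases that is imprinted in humans. CDKN1C had 136, 193 and 173 normalized counts in the combination libraries, 135, 59.1 and 118 in the GSK126 libraries, 11.8, 12.8 and 14.1 in the lapatinib libraries and 14.7, 10.9 and 7.47 in the DMSO libraries. Every library with GSK126 was far above every library without it, and the lapatinib and DMSO libraries overlapped. The low values rest on few reads, 12, 12 and 15 with lapatinib and 12, 11 and 7 in DMSO, against 123, 77 and 134 with GSK126. Counting error is therefore a larger part of the error at the low end. CDKN1C was higher in GSK126 than in DMSO cells by 3.09 ± 0.35 (adjusted p = 6.2e-05, limma), a ratio of means of 9.45. With both drugs it was higher than with lapatinib by 3.59 ± 0.35 (adjusted p = 1.28e-05), a ratio of 13.0. Of the 7 genes this was the greatest change in both comparisons. With the composition term, which links GSK126 and DMSO only through combination library 1, the GSK126 difference was 3.29 (adjusted p = 0.0136). It was 2.86 (adjusted p = 0.000376) without the 2 libraries that stood apart, and 3.73 for combination against lapatinib within a composition. Lapatinib against DMSO gave 0.25 ± 0.35 (95% interval -0.51 to 1.01, adjusted p = 0.631), and the combination against GSK126 gave 0.75 ± 0.35 (-0.02 to 1.51, adjusted p = 0.161), or -0.29 under scaling to the spike-in total.

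Among the INK4 genes, CDKN2A encodes p16 and, from another first exon, p14ARF. The table gives 1 value for the symbol, so the transcripts of the 2 proteins are pooled. CDKN2A had 1036, 1236 and 1382 normalized counts in the combination libraries, 1383, 1527 and 2265 in the GSK126 libraries, 817, 821 and 740 in the lapatinib libraries and 1558, 1241 and 1076 in the DMSO libraries. The lapatinib libraries were below all others, and the GSK126 and DMSO libraries overlapped. CDKN2A was lower in lapatinib than in DMSO cells by -0.69 ± 0.20 (adjusted p = 0.0211, limma). It was higher with both drugs than with lapatinib by 0.61 ± 0.20 (adjusted p = 0.0499), a ratio of means of 1.54. The lapatinib call was lost without DMSO library 1 or without any of the 3 lapatinib libraries (adjusted p up to 0.0931). The combination call was lost in 8 of the 12 fits that left out a library (adjusted p up to 0.166), namely DMSO library 2 or 3, any lapatinib library or any combination library. GSK126 against DMSO gave 0.40 ± 0.20 (95% interval -0.03 to 0.83, adjusted p = 0.223), and the combination against GSK126 gave -0.48 ± 0.20 (-0.91 to -0.05, adjusted p = 0.113). The latter passed without GSK126 library 1 (-0.62, adjusted p = 0.04), while 24 of 26 alternative fits left it uncalled.

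CDKN2B encodes p15, the INK4 inhibitor classically induced by TGF-beta. CDKN2B had 1630, 1481 and 1316 normalized counts in the combination libraries, 674, 1215 and 903 in the GSK126 libraries, 294, 256 and 284 in the lapatinib libraries and 156, 215 and 266 in the DMSO libraries. The combination libraries were all above the GSK126 libraries, which were all above the rest, and lapatinib and DMSO libraries overlapped. CDKN2B was higher in GSK126 than in DMSO cells by 2.12 ± 0.23 (adjusted p = 4.15e-05, limma), a ratio of means of 4.38. It was higher with both drugs than with lapatinib by 2.40 ± 0.23 (adjusted p = 1.01e-05), a ratio of 5.30. With the composition term, which links GSK126 and DMSO only through combination library 1, the GSK126 difference was 2.11 (adjusted p = 0.00814). It was 2.33 without the 2 libraries that stood apart, and 2.33 for combination against lapatinib within a composition. The combination against GSK126 gave 0.70 ± 0.23 (95% interval 0.21 to 1.20), with an adjusted p of 0.0504 just above the threshold. That difference passed the test without DMSO library 1 or 3 and was 0.91 (adjusted p = 0.009) without GSK126 library 2. It also passed with DESeq2 (adjusted p = 0.0265), TMM scaling (adjusted p = 0.0473), a pseudocount of 5 (adjusted p = 0.0466) and a filter of 50 (adjusted p = 0.0454). In 18 of 26 alternative fits it kept its direction and stayed uncalled. Without the 2 libraries that stood apart it was 0.41 (adjusted p = 0.277). Under scaling to the spike-in total it was -0.34, and that scaling put the median of all genes at -0.99. Lapatinib against DMSO gave 0.42 ± 0.23 (-0.08 to 0.91, adjusted p = 0.192).

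CDKN2C encodes p18, which also binds CDK4 and CDK6. CDKN2C had 843, 969 and 920 normalized counts in the combination libraries, 981, 1599 and 1313 in the GSK126 libraries, 1298, 1137 and 1177 in the lapatinib libraries and 1406, 1698 and 1357 in the DMSO libraries. The combination libraries were below all others and the DMSO and lapatinib libraries did not overlap, but single-drug differences were small. CDKN2C differed by -0.30 ± 0.17 between lapatinib and DMSO (95% interval -0.67 to 0.08, adjusted p = 0.218, limma) and by -0.22 ± 0.17 between GSK126 and DMSO (-0.59 to 0.16, adjusted p = 0.477). Adding lapatinib to GSK126 gave -0.48 ± 0.17 (-0.86 to -0.11, adjusted p = 0.071), and 22 of 26 alternative fits left it uncalled (adjusted p up to 0.351). It passed the test without GSK126 library 1 (-0.67, adjusted p = 0.0053), without both libraries that stood apart (-0.62, adjusted p = 0.0205) and with DESeq2 (-0.51, adjusted p = 0.0307). It also passed with the composition term (-0.78), which there sets 1 combination library against 2 GSK126 libraries. Adding GSK126 to lapatinib gave -0.40 ± 0.17 (-0.78 to -0.03, adjusted p = 0.143), and 24 of 26 alternative fits left it uncalled (adjusted p up to 0.499). It passed with only these groups in the fit (adjusted p = 0.00954) and without GSK126 library 1 (adjusted p = 0.0343). Those fits called 5094 and 3577 of all tested genes, against 2537 in the fit of all 12 libraries. CDKN2C passed the test in the combination against DMSO, where it was lower by -0.70 ± 0.17 (adjusted p = 0.00589), a ratio of means of 0.613, and it missed the threshold when libraries were rescaled to their total count (-0.45, adjusted p = 0.151).

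CDKN2D encodes p19, the INK4 protein whose transcript is known to vary over the cell cycle. CDKN2D had 61.0, 53.4 and 84.8 normalized counts in the combination libraries, 479, 241 and 319 in the GSK126 libraries, 63.7, 72.4 and 41.3 in the lapatinib libraries and 348, 324 and 313 in the DMSO libraries. Every library with lapatinib was well below every library without it, and within each of these sets the groups overlapped. CDKN2D was lower in lapatinib than in DMSO cells by -2.49 ± 0.28 (adjusted p = 4.6e-05, limma), a ratio of means of 0.18. It was lower with both drugs than with GSK126 by -2.33 ± 0.28 (adjusted p = 0.000117), a ratio of 0.192. Leaving out any library moved the lapatinib difference between -2.65 and -2.26. GSK126 against DMSO gave 0.02 ± 0.28 (95% interval -0.60 to 0.64, adjusted p = 0.975), and the combination against lapatinib gave 0.18 ± 0.28 (-0.44 to 0.79, adjusted p = 0.758).

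**Figure D2:**
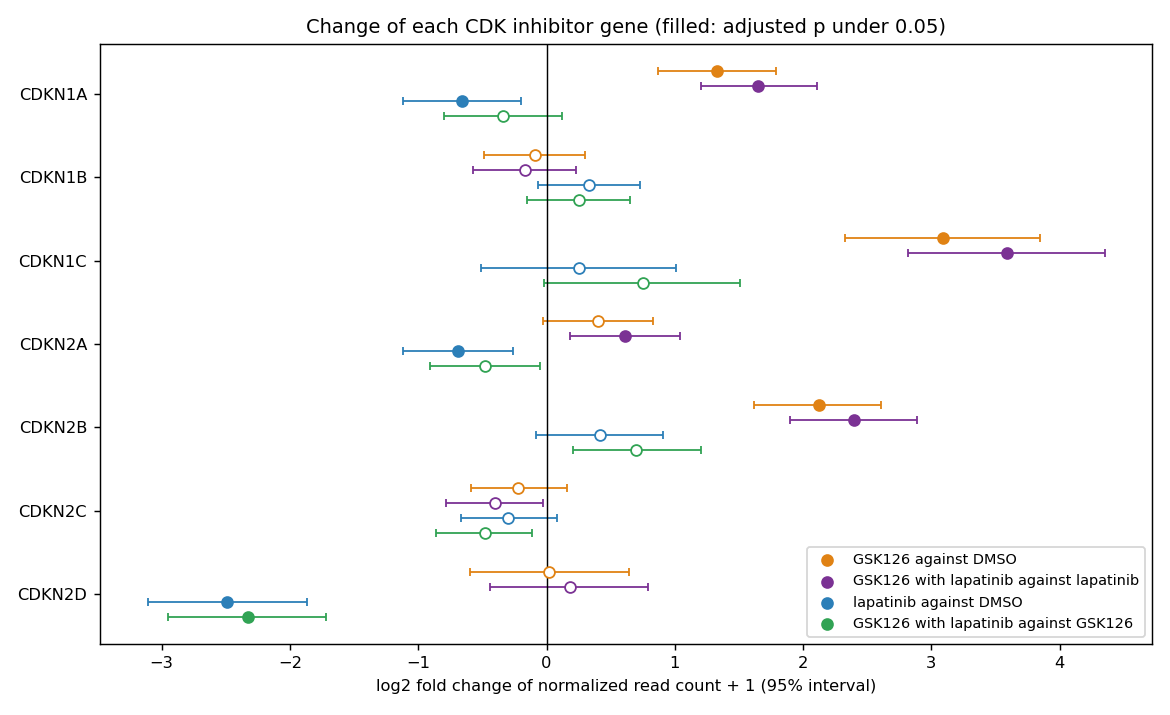
Log2 fold change (x axis) of each gene (y axis) in the 4 comparisons that add a single drug, with 95% intervals from limma and filled points where the adjusted p was under 0.05. The GSK126 differences of CDKN1A, CDKN1C and CDKN2B are filled both over DMSO and over lapatinib, and the lapatinib differences of CDKN2D are filled both over DMSO and over GSK126.

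Counted over the 7 genes, GSK126 against DMSO called 3, all higher (CDKN1A, CDKN1C and CDKN2B), where 14.6% of all tested genes were called, 10.7% higher and 3.93% lower. The libraries of GSK126 and DMSO did not overlap for these 3 genes, against 24.0% of tested genes. The median change of the 7 genes was 0.40, beside -0.04 over all tested genes. The combination against lapatinib called 4, all higher, where 17.9% of tested genes were called, 11.5% higher and 6.35% lower. The additional gene was CDKN2A. In this comparison 5 of the 7 genes did not overlap, against 47.3% of tested genes, and the median was 0.61, beside -0.03 over all.

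Lapatinib against DMSO called 3 of the 7 genes, all lower (CDKN1A, CDKN2A and CDKN2D), where 28.0% of tested genes were called, 13.7% higher and 14.3% lower. The libraries did not overlap for 5 of the 7, a share close to the 55.5% over all tested genes, and the median was -0.30, beside 0.04. The combination against GSK126 called 1 of the 7, CDKN2D, lower, where 18.2% of tested genes were called, 8.48% higher and 9.71% lower. There 6 of the 7 did not overlap, against 29.7% of tested genes, and the median was -0.34, beside 0.04. The combination against DMSO called 3 higher (CDKN1A, CDKN1C and CDKN2B) and 2 lower (CDKN2C and CDKN2D), or 5 of 7 where 42.1% of tested genes were called, 22.0% higher and 20.1% lower. The libraries did not overlap for 5 of the 7, against 57.1% of tested genes. Comparisons that share a group share its libraries.

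How the libraries were scaled bears on these counts. Scaling to the spike-in total moved the median of all tested genes to -0.49 for lapatinib against DMSO, -0.49 for the combination against lapatinib and -0.99 for the combination against GSK126, and it widened the spread between libraries. On that scale CDKN1A was called neither for GSK126 against DMSO (1.37, adjusted p = 0.26) nor for the combination against lapatinib (1.19, adjusted p = 0.344). CDKN2B was called for GSK126 against DMSO (2.16, adjusted p = 0.0358) and not for the combination against lapatinib (1.93, adjusted p = 0.0844). Relative to the median of all genes on that scale, the combination against lapatinib stood at 1.67 for CDKN1A, 3.60 for CDKN1C, 0.63 for CDKN2A and 2.42 for CDKN2B, and lapatinib against DMSO stood at -0.71 for CDKN1A, -0.74 for CDKN2A and -2.54 for CDKN2D.

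Whether the drugs together departed from the sum of their separate changes was tested by the interaction term. It called 0 of the 7 genes with limma, edgeR and DESeq2, and 0 of the 7 had an unadjusted p under 0.05 with limma. Over all tested genes limma called 3, or 0.0212%, with 0.0141% higher and 0.00705% lower. The interaction was 0.32 ± 0.30 for CDKN1A (95% interval -0.33 to 0.97), 0.50 ± 0.50 for CDKN1C (-0.58 to 1.57), 0.28 ± 0.32 for CDKN2B (-0.42 to 0.98) and 0.16 ± 0.40 for CDKN2D (-0.72 to 1.03). Departures within these intervals are compatible with the data. With 3 libraries a group, even larger departures could go uncalled after adjustment over all tested genes. The values for CDKN1B, CDKN2A and CDKN2C were -0.07 (-0.64 to 0.49), 0.21 (-0.40 to 0.82) and -0.19 (-0.72 to 0.34).

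Ordered by mean level, the 4 groups formed 5 different series over the 7 genes. CDKN1C and CDKN2B had the same order, combination, GSK126, lapatinib and DMSO, and in both the break lay between GSK126 and lapatinib, at 2.84 ± 0.35 for CDKN1C (adjusted p = 4.95e-05, limma) and 1.70 ± 0.23 for CDKN2B (adjusted p = 9.75e-05). The order of CDKN2A and CDKN2D was GSK126, DMSO, combination and lapatinib, but for CDKN2D the break lay between DMSO and the combination, at -2.31 ± 0.28 for the combination against DMSO (adjusted p = 3.91e-05), and for CDKN2A it lay between the combination and lapatinib. CDKN1A went GSK126, combination, DMSO and lapatinib, with breaks on both sides of DMSO. For CDKN1B (lapatinib, combination, DMSO, GSK126) and CDKN2C (DMSO, GSK126, lapatinib, combination) no neighbours passed the test, although the lapatinib and combination libraries of CDKN2C did not overlap. In all, 6 of the 21 neighbouring pairs passed the test and 15 did not. GSK126 against lapatinib, needed for this order, called 5 of the 7 genes, all higher, where 33.4% of tested genes were called, 18.5% higher and 14.9% lower, and the libraries of 5 did not overlap, against 45.2%. Under scaling to the spike-in total the order of combination and GSK126 turned round for CDKN1C and CDKN2B, as did that of lapatinib and DMSO.

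To set the genes against each other, normalized counts were divided by the exon length of each gene. Per kb of exon the 7 genes summed to 1814 ± 76.7 in combination cells, 2117 ± 271 in GSK126 cells, 1283 ± 46.7 in lapatinib cells and 1636 ± 94.6 in DMSO cells (SD, n = 3). CDKN2B supplied 20.2% of that sum in combination cells, 10.8% in GSK126 cells, 5.37% in lapatinib cells and 3.24% in DMSO cells. In DMSO cells the INK4 genes CDKN2C (27.3%) and CDKN2A (25.0%) and the CIP/KIP gene CDKN1B (23.7%) together made up most of the sum, and CDKN1C supplied 0.345%. In lapatinib cells CDKN1B had the highest share, 37.5%, beside 28.3% for CDKN2C, while CDKN2D supplied 3.06%, against 13.4% in DMSO cells. CDKN1C stayed a small part even where it was called higher, at 4.72% in combination cells and 2.60% in GSK126 cells. CDKN2D likewise supplied 2.44% in combination cells, against 11.3% in GSK126 cells. These shares depend on exon lengths from an annotation of another build than the reads were aligned to.

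**Figure D3:**
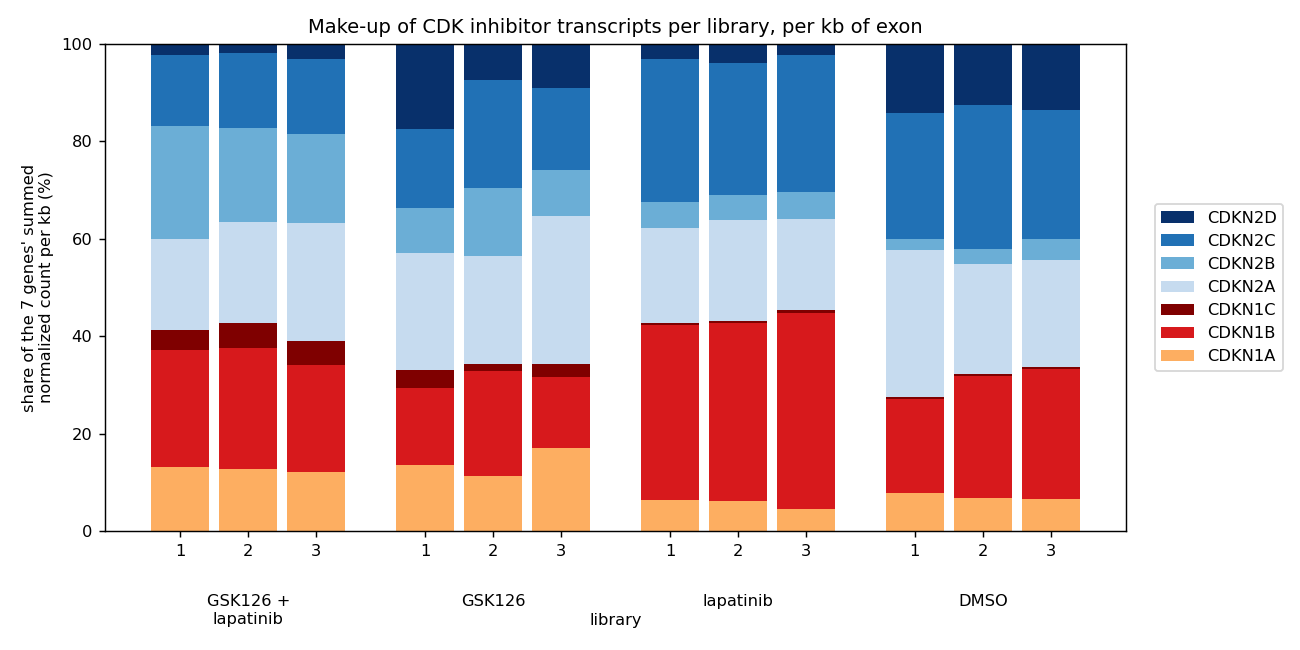
Share of each gene (y axis, percent) in the summed normalized count per kb of exon of the 7 CDK inhibitor genes, for each library (x axis, 3 libraries per treatment), with CIP/KIP genes in warm and INK4 genes in blue colours. The CDKN2B band covers 18.1% to 23.1% with both drugs, against 2.36% to 4.27% in DMSO.

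CDKN2A and CDKN2B are adjacent on chromosome 9, at 21967753 to 21995301 and 22002903 to 22009363 on the minus strand of GRCh38, yet their transcripts did not move alike. Per kb, the ratio of CDKN2B to CDKN2A was 1.23, 0.938 and 0.745 in the combination libraries, 0.381, 0.623 and 0.312 in the GSK126 libraries, 0.282, 0.245 and 0.301 in the lapatinib libraries and 0.0782, 0.136 and 0.193 in the DMSO libraries. None of the 4 groups overlapped in this ratio. MTAP, the metabolic enzyme gene next to CDKN2A, had 1073, 1135 and 1017 normalized counts in the combination libraries, 765, 1430 and 813 in the GSK126 libraries, 750, 787 and 744 in the lapatinib libraries and 727, 904 and 1032 in the DMSO libraries. MTAP differed by 0.13 ± 0.21 between GSK126 and DMSO (adjusted p = 0.761, limma) and by 0.50 ± 0.21 between the combination and lapatinib (adjusted p = 0.142). CDKN2B-AS1, the antisense RNA that starts near CDKN2A and runs across CDKN2B, averaged 79.8 ± 21.8 in combination, 57.6 ± 3.35 in GSK126, 52.1 ± 8.46 in lapatinib and 56.3 ± 22.4 in DMSO libraries. It gave 0.12 ± 0.33 for GSK126 against DMSO (adjusted p = 0.856) and 0.58 ± 0.33 for the combination against lapatinib (adjusted p = 0.272). The sources used here do not say whether reads were counted by strand, so reads of CDKN2B-AS1 and of the 2 coding genes may be partly shared, and their values are uncertain to that extent.

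CDKN1C lies on chromosome 11, at 2883213 to 2885773 on the minus strand, in an imprinted domain. Its neighbour PHLDA2, a growth-restraining imprinted gene, had 301, 367 and 449 normalized counts in the combination libraries, 1550, 853 and 1298 in the GSK126 libraries, 248, 286 and 222 in the lapatinib libraries and 2291, 1522 and 1806 in the DMSO libraries. PHLDA2 was thus low in the lapatinib groups, lower than DMSO by -2.88 ± 0.23 (adjusted p = 2.62e-06, limma), and differed by -0.62 ± 0.23 between GSK126 and DMSO (adjusted p = 0.102). KCNQ1OT1, the noncoding RNA whose transcription is known to silence CDKN1C on the paternal chromosome, gave -0.33 ± 0.34 between GSK126 and DMSO (95% interval -1.08 to 0.41, adjusted p = 0.598) and 0.29 ± 0.34 between the combination and lapatinib (adjusted p = 0.663). H19, an imprinted noncoding RNA of the adjoining domain, had 35457, 36136 and 39435 normalized counts in the combination libraries, 79711, 72312 and 108002 in the GSK126 libraries, 145215, 139434 and 120831 in the lapatinib libraries and 386648, 344828 and 234356 in the DMSO libraries. It went the other way from CDKN1C with GSK126, and none of the groups overlapped. H19 was lower in GSK126 than in DMSO cells by -1.88 ± 0.21 (adjusted p = 5.77e-05) and lower with both drugs than with lapatinib by -1.87 ± 0.21 (adjusted p = 4.39e-05), and lapatinib against DMSO gave -1.22 ± 0.21 (adjusted p = 0.00107).

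**Figure D4:**
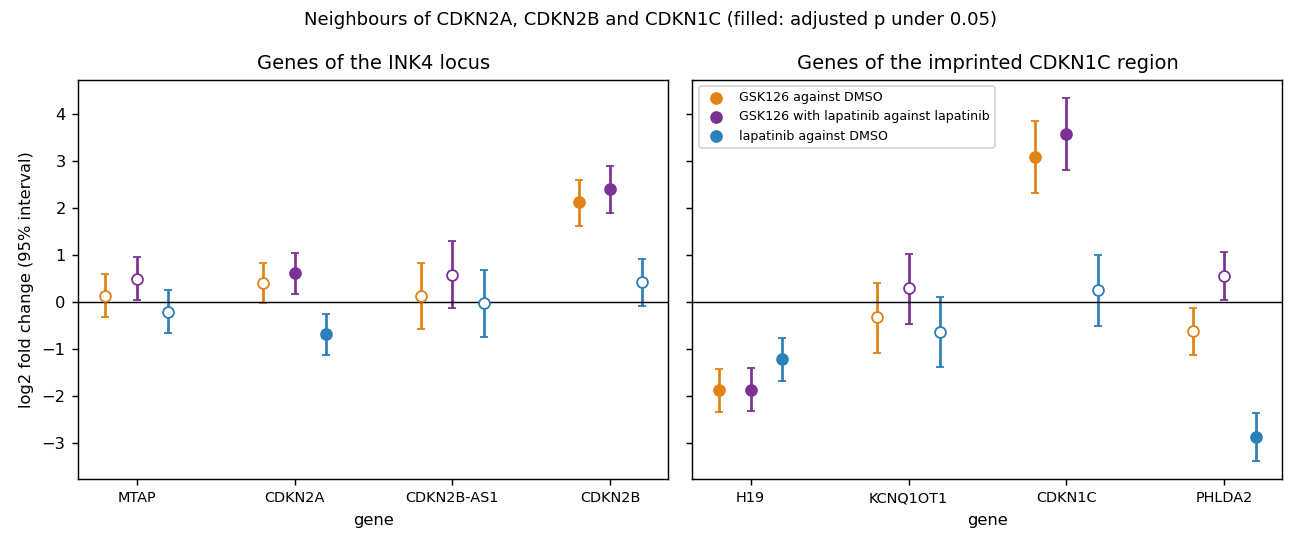
Log2 fold change with 95% interval (y axis) of CDKN2A, CDKN2B and CDKN1C and of their neighbours (x axis) in 3 comparisons, filled where the adjusted p was under 0.05. Around CDKN2B and CDKN1C, whose GSK126 differences are filled in both comparisons, the GSK126 differences of MTAP, CDKN2B-AS1, KCNQ1OT1 and PHLDA2 are not, and those of H19 lie below 0.

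The kinases and cyclins on which these inhibitors act changed mainly with lapatinib. Of 18 tested cyclin, CDK and RB family genes, lapatinib against DMSO called 13 lower and 1 higher, with a median of -1.31 beside 0.04 over all tested genes, of which 14.3% were called lower and 13.7% higher. The lower genes were led by the mitotic cyclins and their kinase, CCNB2 at -1.98 ± 0.13 (adjusted p = 4.86e-07, limma), CCNB1 at -2.13 ± 0.14 (adjusted p = 6.62e-07), CDK1 at -3.12 ± 0.22 (adjusted p = 1.04e-06) and CCNA2 at -2.83 ± 0.21 (adjusted p = 1.46e-06). The higher gene was RBL2, the pocket protein p130, at 1.13 ± 0.26 (adjusted p = 0.00666). The combination against GSK126 called 11 of the 18, all lower, with a median of -0.97, where 9.71% of all tested genes were called lower. GSK126 against DMSO called 1 higher and 1 lower, where 14.6% of all tested genes were called. The higher gene was CDK6, the INK4-sensitive G1 kinase, which had 1233 ± 102 normalized counts in combination, 1291 ± 269 in GSK126, 241 ± 9.80 in lapatinib and 405 ± 63.8 in DMSO libraries (SD, n = 3). CDK6 was higher in GSK126 than in DMSO cells by 1.66 ± 0.17 (adjusted p = 3.05e-05), and higher with both drugs than with lapatinib by 2.35 ± 0.17 (adjusted p = 1.33e-06), so it was called with CDKN2B, whose product binds it. The lower gene was CCNH, a subunit of the CDK-activating kinase, at -0.65 ± 0.19 (adjusted p = 0.0327). MKI67, a proliferation marker, differed by 0.19 ± 0.16 between GSK126 and DMSO (adjusted p = 0.498) and was lower in lapatinib than in DMSO cells by -2.90 ± 0.16 (adjusted p = 1.45e-07).

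**Figure D5:**
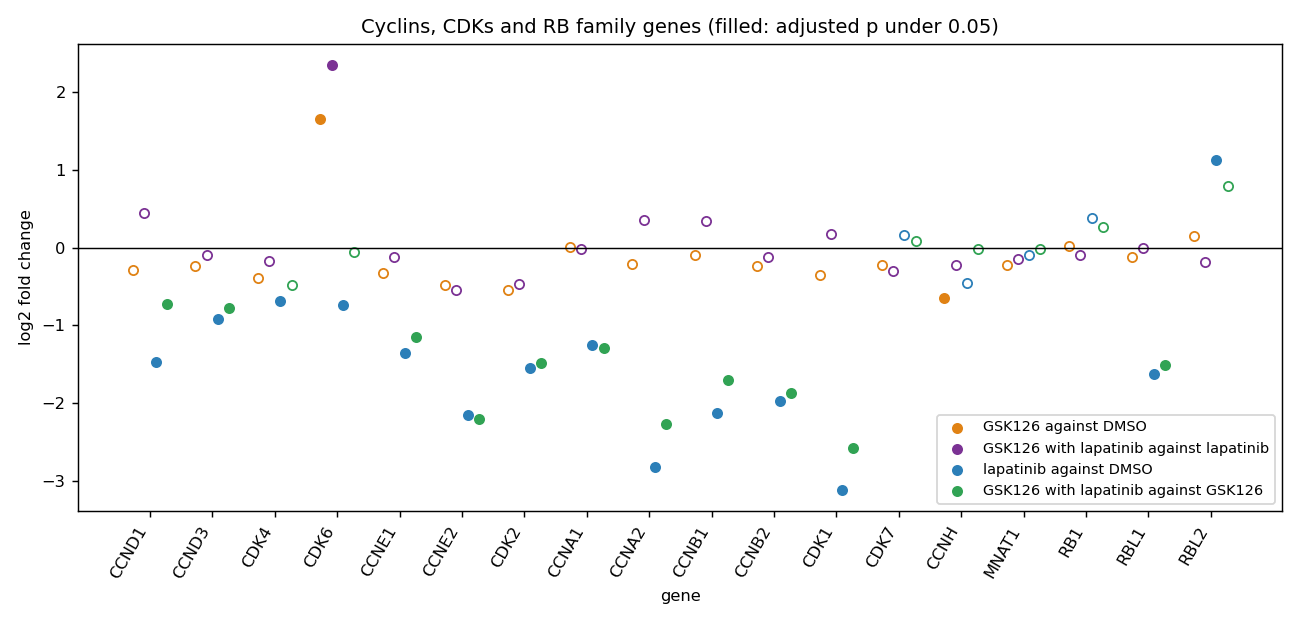
Log2 fold change (y axis) of the 18 tested cyclin, CDK and RB family genes (x axis) in the 4 comparisons that add a single drug, filled where the adjusted p was under 0.05. CDK6 is the gene filled above 0 in both GSK126 comparisons, and RBL2 is the gene filled above 0 in lapatinib against DMSO.

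Of 13 genes listed for the turnover of p27 and p21 proteins, lapatinib against DMSO called 4 lower and 1 higher (median -0.51), where 14.3% of all tested genes were called lower and 13.7% higher. SKP2, the F-box protein that recognises p27, was lower by -0.90 ± 0.15 (adjusted p = 0.000958, limma), its cofactor CKS1B by -2.17 ± 0.23 (adjusted p = 2.33e-05) and DTL, which directs p21 to ubiquitin ligase, by -2.71 ± 0.25 (adjusted p = 7e-06). GSK126 against DMSO called 0 of the 13 with limma (median -0.18), where 14.6% of all tested genes were called, and 1 had an unadjusted p under 0.05. The fourth lower gene was UBAC1, the higher gene was CUL4B, and the other 8 did not pass the test.

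Further gene groups tied to the control of CDK inhibitors were counted in the same way. Of 20 genes of TGF-beta and SMAD signalling and of the MYC, KLF, ETS and ID factors, GSK126 against DMSO called 6 higher and 2 lower (median 0.36), where 10.7% of all tested genes were called higher and 3.93% lower. The combination against lapatinib called 10 higher and 2 lower (median 0.41), where 11.5% were called higher and 6.35% lower. In both comparisons the 2 lower genes were ID2 and the receptor gene TGFBR1. TGFB2, a TGF-beta ligand, was higher in GSK126 than in DMSO cells by 2.52 ± 0.22 (adjusted p = 9.79e-06, limma) and the signal transducer SMAD3 by 1.81 ± 0.20 (adjusted p = 5.48e-05). The transcription factor ETS1 was higher by 3.62 ± 0.41 (adjusted p = 6.04e-05), at 91.6 ± 41.8 in GSK126 and 6.35 ± 2.33 in DMSO libraries, and KLF4, a GC-box binding factor, by 1.39 ± 0.18 (adjusted p = 0.000202). MYC, known to repress CDKN2B and CDKN1A, differed by -0.22 ± 0.41 (adjusted p = 0.796), and is named here after its values were seen. KLF4 was also called higher in lapatinib against DMSO and in the combination against GSK126. Lapatinib against DMSO called 5 of the 20 higher and 1 lower, where 13.7% of all tested genes were called higher and 14.3% lower. The combination against GSK126 called 5 higher and 0 lower, where 8.48% were called higher and 9.71% lower. Of 18 Polycomb and demethylase genes GSK126 against DMSO called 1, where 14.6% of all tested genes were called. It was RNF2, a ligase subunit of PRC1, higher by 0.77 ± 0.23 (adjusted p = 0.0381), and EZH2 differed by -0.17 ± 0.13 (adjusted p = 0.469). Lapatinib against DMSO called 5 of these 18 lower, among them EZH2 at -1.74 ± 0.13 (adjusted p = 1.84e-06), and 3 higher, where 28.0% of all tested genes were called in either direction. EZH2 and CDKN2D were thus both lower with lapatinib.

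Of 14 tested genes of the p53 pathway, GSK126 against DMSO called 1 higher, the pro-apoptotic BBC3, by 1.20 ± 0.20 (adjusted p = 0.00138, limma), with a median of 0.08, where 14.6% of all tested genes were called. MDM2, a standard p53 target that was named after its values were seen, differed by -0.24 ± 0.20 (adjusted p = 0.506). CDKN1A was thus called with 1 of these 14 genes. Lapatinib against DMSO called 3 of the 14, all higher (median 0.31), where 28.0% of all tested genes were called, led by GADD45A at 1.03 ± 0.20 (adjusted p = 0.00211), while CDKN1A was lower in the same cells. Of 12 tested genes of the FOXO and AKT axis, which is known to control CDKN1B, lapatinib against DMSO called 6 higher and 1 lower (median 0.81), where 13.7% of all tested genes were called higher and 14.3% lower. They were led by the FOXO target FBXO32 at 2.13 ± 0.11 (adjusted p = 9.47e-08). GSK126 against DMSO called 4 of the 12 higher, where 10.7% of all tested genes were, among them FBXO32 at 2.18 ± 0.11 (adjusted p = 1.19e-07) and FOXO1 at 1.39 ± 0.18 (adjusted p = 0.000183). CDKN1B passed the test in neither.

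Of 9 tested genes associated with senescence, lapatinib against DMSO called 3 lower, where 14.3% of all tested genes were: HMGB2, LMNB1 and HMGB1, whose loss is a mark of senescent cells but whose transcripts also follow proliferation. LMNB1 differed by 0.03 ± 0.26 between GSK126 and DMSO (adjusted p = 0.957, limma). The genes IGFBP3 and IGFBP5, which encode secreted binding proteins of insulin-like growth factors, were higher in GSK126 than in DMSO cells, by 2.43 ± 0.34 for IGFBP3 (adjusted p = 0.000335) and by 0.79 ± 0.17 for IGFBP5 (adjusted p = 0.00681). Of 10 other genes with a CDKN name or known to bind CDKs, lapatinib against DMSO called 3 lower and 1 higher, where 14.3% of all tested genes were called lower and 13.7% higher. CDKN3, a phosphatase of CDK2 and no CDK inhibitor of these families, had 302 ± 36.7 normalized counts in combination, 1093 ± 29.3 in GSK126, 250 ± 16.6 in lapatinib and 1277 ± 173 in DMSO libraries. CDKN3 was lower in lapatinib than in DMSO cells by -2.34 ± 0.15 (adjusted p = 4.33e-07). HEXIM1, an inhibitor of the transcription kinase P-TEFb, was higher by 0.77 ± 0.16 (adjusted p = 0.00416).

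The genes whose levels followed each CDK inhibitor most closely were picked by the Pearson correlation of log2(value + 1) over the 12 libraries, among 11300 genes with a mean of at least 50. The 12 libraries share the 4 treatments, so any genes that respond alike score highly. For CDKN1A these were TRIM29 (r = 0.992), TSPAN14 (0.982) and the pseudogene HNRNPA1P33 (0.98), whose reads may come from its parent gene. For CDKN1C they were the chemokine gene CCL22 (r = 0.99), DHRS3 (0.988) and A4GALT (0.984). For CDKN2B they were the ectonucleotidase gene NT5E (r = 0.994), RGL1 (0.992) and ARHGEF10L (0.991). NT5E averaged 2465 normalized counts in combination, 1381 in GSK126, 184 in lapatinib and 144 in DMSO libraries. For CDKN2D they were the mitotic kinase gene AURKB (r = 0.988), SFN (0.987) and the spindle gene TACC3 (0.987). AURKB averaged 141 in combination, 1411 in GSK126, 114 in lapatinib and 1255 in DMSO libraries. The closest genes to CDKN2A were CACNB3 (r = 0.958), MAPK8IP2 (0.938) and PROSER2 (0.937), and those to CDKN2C were SMPD4 (0.963), CS (0.962) and SLC25A15 (0.951), so these 2 genes had looser matches. Among the 7 genes themselves, the closest were CDKN1C and CDKN2B (r = 0.92) and CDKN1A and CDKN1C (0.86), and the most opposed were CDKN1B and CDKN2D (-0.72).

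A few marker genes of other cells were higher in the GSK126 groups, as CDKN1A, CDKN1C and CDKN2B were. The summed level of the 4 endothelial markers was 784 to 1093 in combination, 934 to 1561 in GSK126, 185 to 238 in lapatinib and 206 to 270 in DMSO libraries. Nearly all of the GSK126 sum was CDH5, at 867 to 1529, while PECAM1 and KDR stayed at or near 0. VWF, the remaining marker of that list, went the other way, at 21.8 to 63.5 in combination, 26.5 to 63.5 in GSK126, 125 to 157 in lapatinib and 83.0 to 107 in DMSO libraries. It was lower in GSK126 than in DMSO cells by -1.35 ± 0.39 (adjusted p = 0.0344, limma) and lower with both drugs than with lapatinib by -1.82 ± 0.39 (adjusted p = 0.00522). The sum of 5 blood markers was 624 to 732 in combination, 252 to 430 in GSK126, 214 to 311 in lapatinib and 141 to 183 in DMSO libraries, almost all of it the lysosomal gene CD68. CD68 was called higher with either drug, by 1.12 for GSK126 and 0.74 for lapatinib against DMSO. The combination called it higher by 1.38 against lapatinib and by 1.0 against GSK126. The 7 fibroblast markers summed to 71.3 to 179 in combination, 202 to 289 in GSK126, 214 to 248 in lapatinib and 254 to 400 in DMSO libraries, and COL1A2, DCN and LUM were at 0 in all GSK126 libraries. The 3 basal markers summed to 26.7 to 49.2 in combination, 34.0 to 68.9 in GSK126, 14.7 to 28.2 in lapatinib and 11.7 to 53.9 in DMSO libraries. The part of CDH5-expressing or CD68-expressing cells in the CDK inhibitor values was not tested.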

How the data were processed

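Messenger RNA was sequenced as 75 bp single-end reads from 12 libraries. Per the submitters' processing notes, the authors used STAR, the hg19 build and DESeq2, with no versions. The deposited values are a normalized signal per gene, which is the read count over the size factor of its library. The counter, annotation, strand setting and filters are not given in the sources used here. Dividing by the step of each library gave whole reads for 100% of values within 0.01.

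Values were tested as log2(value + 1) with limma 3.58.1 (R 4.3.3), using 4 group means, a prior variance with a trend, and p-values adjusted by Benjamini and Hochberg over 14179 genes that had at least 10 in at least 3 libraries. The fit was tested on simulated data. The alternatives changed the pseudocount (0.5 or 5), the filter (50, or any value above 0), the scaling (TMM, total count or spike-in total), the prior, the groups fitted, the tool (edgeR 4.0.16 or DESeq2 1.42.0 on recovered reads) and the terms (spike-in composition or replicate block), or left out a library. Leaving out GSK126 library 1 and combination library 1 together was chosen after seeing the data. Exon lengths came from GENCODE on GRCh38 and start regions from RefSeq, matched by symbol. Depth was 17.7 to 30.3 M reads.

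The members and gene lists were chosen with earlier results of these data known. Genes named are the 7 members, their neighbours, up to 4 genes per list and comparison by smallest adjusted p, EZH2 and MKI67, and the 3 genes most correlated with each member called at least once. ID2 and TGFBR1 are named because they were the genes called lower in their list. A result of the senescence list is not reported here.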

Additional observations from a re-analysis of the deposited data

How the results depend on the processing

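Of 1260 alternative values for the 7 genes, 1172 kept their direction and their side of the threshold, 33 lost a call, 16 gained one and 39 changed sign; the cause was not tested. The number of genes called was 3 for lapatinib against DMSO (1 to 3 when a library was left out, 1 under total-count and 1 under spike-in scaling). Spike-in scaling called 785 of the 14179 tested genes in that comparison, against 3973 as deposited, and total-count scaling called 3790. It was 1 for the combination against GSK126 (1 to 3 when a library was left out, 2 with a pseudocount of 5, 2 with a filter of 50, 2 with TMM, 2 with spike-in scaling, 2 with the composition term, 2 without the 2 libraries that stood apart and 3 with DESeq2). For the combination against lapatinib it was 4 (3 to 5 when a library was left out, 1 under spike-in scaling, where 408 of all tested genes were called, against 2537). It stayed at 3 for GSK126 against DMSO and at 5 for the combination against DMSO whichever library was left out, and was 2 for GSK126 against DMSO with spike-in scaling or the composition term and 4 for the combination against DMSO with total-count or spike-in scaling. Over all tested genes, GSK126 against DMSO called 578 with spike-in scaling and 446 with the composition term, against 2069 without these changes. The combination against DMSO called 5733 with total-count and 4709 with spike-in scaling, against 5970.

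Spike-in scaling turned round lapatinib against DMSO for CDKN1C (-0.25), CDKN1B (-0.21) and CDKN2B (-0.12), the combination against GSK126 for CDKN1C (-0.29), CDKN1B (-0.79) and CDKN2B (-0.34), the combination against lapatinib for CDKN2D (-0.28), the combination against DMSO for CDKN1B (-0.85) and CDKN1A (-0.011), and GSK126 against lapatinib for CDKN1B (0.16). It did so for the interaction of CDKN1C (-0.042), CDKN2D (-0.34), CDKN1A (-0.18), CDKN2A (-0.29) and CDKN2B (-0.22), but that scaling moved the median interaction of all genes to -0.48, and relative to it these were 0.44, 0.15, 0.30, 0.19 and 0.26. Total-count scaling turned round CDKN1B for GSK126 against DMSO (0.01) and CDKN2A for the combination against DMSO (0.18). The composition term did so for GSK126 against DMSO in CDKN2D (-0.10), CDKN1B (0.098) and CDKN2C (0.13), for the combination against DMSO in CDKN2A (0.034) and for the interaction of CDKN2A (-0.16). Without both libraries that stood apart, GSK126 against DMSO was -0.24 for CDKN2D and 0.069 for CDKN1B, the combination against DMSO was 0.034 for CDKN2A and the interaction was -0.0062 for CDKN2B. Leaving out a library gave ranges that crossed 0 for GSK126 against DMSO in CDKN2D (-0.24 to 0.25) and CDKN1B (-0.29 to 0.069), the combination against lapatinib in CDKN2D (-0.058 to 0.34), the combination against DMSO in CDKN2A (-0.20 to 0.066), GSK126 against lapatinib in CDKN2C (-0.083 to 0.27), and the interaction of CDKN1B (-0.24 to 0.12) and CDKN2D (-0.079 to 0.42). Apart from CDKN1A in the combination against DMSO under spike-in scaling, none of these had passed the test.

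Correlations of deviations from the group means had a median of -0.072 (-0.334 to 0.352) over 18 same-numbered pairs of libraries. Over the 36 other pairs the median was -0.004 (-0.483 to 0.44). Deviations from a mean of 3 libraries are tied to each other, so these values cannot show whether libraries were made in pairs. With the replicate block, lapatinib against DMSO called 2 of the 7 (CDKN1A, adjusted p = 0.0541, was lost) and the combination against lapatinib called 3. Low counts of CDKN1C without GSK126 limit the precision of its fold change.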
